A study of Homo sapiens with 4 samples.

Results

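The genes described here encode the proteins that read or remove N6-methyladenosine (m6A), a methyl mark on adenosines of messenger RNA. The set holds 10 genes among 19839 protein-coding genes of chromosomes 1 to 22 and X. It consists of the YTH-domain readers YTHDF1, YTHDF2, YTHDF3, YTHDC1 and YTHDC2, the KH-domain readers IGF2BP1, IGF2BP2 and IGF2BP3, and the erasers FTO and ALKBH5. Members were chosen by name, as genes of this pathway that include the knockdown target, and not by a rule on measured values. Earlier results of these data were known at that point. For each member, all peaks in its RefSeq span and 20 kb either side were taken from the deposited peak lists. These windows held 25 of 34390 peaks in the knockdown list and 26 of 32791 in the wild-type list.

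The measured mark was monoubiquitinated histone H2A (H2AK119ub), mapped by chromatin immunoprecipitation sequencing in H1, an established line of human embryonic stem cells grown in mTeSR1. The knockdown (KD) group was labelled as H1 cells treated with an shRNA against YTHDF1. The wild-type (WT) group was labelled as untreated H1 cells, and the labels name no control hairpin. Each group had 1 H2AK119ub library and 1 input library, and the inputs were not analysed here. Nothing below could therefore be set against a replicate spread, no test was run, and differences are those between 2 libraries. Read counts are not part of the peak lists, so the depth behind them is unknown. A region with a peak in 1 list may have missed the caller's threshold narrowly in the other. A histone-mark peak measures neither the RNA nor the protein of a gene, so neither the knockdown of YTHDF1 nor the stem cell label could be checked from these files.

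As background, m6A is written in the nucleus by a methyltransferase complex built on METTL3 and METTL14, is bound by reader proteins that set the fate of the transcript, and can be removed by demethylases. H2AK119ub is placed by Polycomb repressive complex 1 (PRC1) through RING1 and RNF2, and is known above all from CpG-rich promoters of developmental genes that are silent in stem cells. The m6A readers and erasers are broadly expressed genes, apart from IGF2BP1 and IGF2BP3, which are known chiefly from embryonic and cancer cells. All positions are in hg38, with genes and starts from RefSeq (GRCh38.p14, the same coordinates).

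Since the mark is linked to CpG-rich promoters, the 250 bases before the annotated start are shown for 5 members that differ in their peaks. YTHDF1 and IGF2BP2 had peaks over the start in both lists, YTHDC1 and YTHDC2 in WT cells alone, and FTO in neither. For FTO the annotated start lies inside the gene span, which begins at 53703963, so most of the 250 bases shown are within the span. Sequences are from RefSeq (GRCh38.p14), run 5′ to 3′ on the gene's strand, and have each CG dinucleotide in capitals. They come from chr20:63216132-63216381 (minus strand) for YTHDF1, chr3:185825043-185825292 (minus) for IGF2BP2, chr4:68350091-68350340 (minus) for YTHDC1, chr5:113513444-113513693 (plus) for YTHDC2 and chr16:53703906-53704155 (plus) for FTO.
YTHDF1: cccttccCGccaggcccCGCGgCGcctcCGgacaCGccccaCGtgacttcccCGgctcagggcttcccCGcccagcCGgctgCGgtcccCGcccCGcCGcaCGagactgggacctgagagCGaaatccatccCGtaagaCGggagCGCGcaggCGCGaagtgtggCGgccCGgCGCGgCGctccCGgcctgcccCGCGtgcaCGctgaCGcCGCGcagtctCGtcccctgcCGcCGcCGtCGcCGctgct
IGF2BP2: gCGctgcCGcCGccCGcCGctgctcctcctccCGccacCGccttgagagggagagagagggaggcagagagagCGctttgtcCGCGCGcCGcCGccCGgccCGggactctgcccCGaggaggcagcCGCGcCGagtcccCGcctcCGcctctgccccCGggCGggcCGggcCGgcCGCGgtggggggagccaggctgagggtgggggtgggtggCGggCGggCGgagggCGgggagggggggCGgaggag
YTHDC1: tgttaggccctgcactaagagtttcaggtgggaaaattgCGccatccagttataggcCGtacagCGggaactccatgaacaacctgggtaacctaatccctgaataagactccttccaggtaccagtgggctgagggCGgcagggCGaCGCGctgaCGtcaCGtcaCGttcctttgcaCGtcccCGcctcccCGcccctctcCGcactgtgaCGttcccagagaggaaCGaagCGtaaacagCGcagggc
YTHDC2: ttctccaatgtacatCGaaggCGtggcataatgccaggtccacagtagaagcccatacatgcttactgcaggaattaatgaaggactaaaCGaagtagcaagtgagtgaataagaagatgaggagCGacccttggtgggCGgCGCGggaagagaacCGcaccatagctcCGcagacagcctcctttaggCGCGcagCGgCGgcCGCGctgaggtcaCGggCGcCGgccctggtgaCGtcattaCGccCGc
FTO: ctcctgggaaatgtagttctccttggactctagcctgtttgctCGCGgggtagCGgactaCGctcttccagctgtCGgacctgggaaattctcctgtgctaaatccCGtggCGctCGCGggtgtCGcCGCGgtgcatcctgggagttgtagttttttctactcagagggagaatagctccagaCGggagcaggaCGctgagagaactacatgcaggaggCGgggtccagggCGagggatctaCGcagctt
A CG reads the same on both strands, so each was counted once. At least 1 CG stood in 96.9% of the 15812 protein-coding promoters with an entry, and their median number was 17. YTHDF1 had 40, a number reached by 2.67% of promoters, IGF2BP2 had 32 (12.2%), YTHDC2 had 21 (40.2%), YTHDC1 had 18 (49.3%) and FTO had 17 (52.3%).

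Promoter entries matched 8 of the 10 members, all but YTHDF3 and IGF2BP1. ALKBH5 also had 32 CGs, IGF2BP3 had 15 and YTHDF2 had 12. The observed number of CGs over that expected from base composition was at least 0.6 in 7 of the 8 promoters. The share over all 15812 promoters was 63.4%. The exception among the members was YTHDF2 at 0.524. Over all promoters, those at or above 0.6 had a peak within 2 kb of the start in 83.5% of cases in KD cells and 82.3% in WT cells, against 43.4% and 43.3% of those below it. FTO, at 0.813, was a CpG-rich promoter with no peak in either list. YTHDC2 (1.01) and YTHDC1 (0.836) had one in WT cells alone, and the start of YTHDF2 lay in peaks of both lists with the lowest ratio of the 8. The starts with peaks in both lists thus spanned 12 to 40 CGs, and those without a KD peak 17 to 21.

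The widest H2AK119ub domain of the set lay at the knockdown target itself. YTHDF1, a cytoplasmic reader known for promoting translation of m6A-bearing transcripts, lies on the minus strand of chromosome 20 (63195429 to 63216131). In its window of 60.7 kb, 36.5 kb lay in peaks in KD cells and 45.1 kb in WT cells, or 60.1% and 74.3% of the window. Over all protein-coding genes the median was 8.76% of the window in KD cells and 9.64% in WT cells, and 91.8% and 93.1% of genes lay at or below YTHDF1. The difference of -8.6 kb gave a ratio of knockdown to wild type of 0.809. That is close to the ratio of 0.862 between the covered lengths of the whole lists, and 39.9% of the protein-coding genes with at least 1 kb in peaks had a ratio at or below it.

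The 2 lists differed inside the YTHDF1 gene more than around it. Within the transcribed span, 1.73 kb lay in peaks in KD cells and 11.5 kb in WT cells, a ratio of 0.150. Over the 14514 genes with at least 1 kb in peaks in the span, 5.86% had a ratio at or below this and the median ratio was 0.920. Peaks filled the whole 20 kb before the start in KD cells and in WT cells, which leaves no room for a difference there. The 20 kb after the gene held 14.8 kb in KD cells and 13.6 kb in WT cells.

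The domain over the YTHDF1 start measured 26.0 kb in KD cells (63214401 to 63240400) and 40.2 kb in WT cells (63210601 to 63250800), a ratio of 0.647. The whole knockdown peak lay inside the wild-type peak. It reached 1.73 kb into the gene in KD cells and 5.53 kb in WT cells, and 24.3 kb against 34.7 kb beyond the start. On the far side the wild-type peak also met a separate knockdown peak of 8.4 kb (63242601 to 63251000), and together the knockdown peaks covered 85.1% of it. The authors' score has no stated unit and ranks peaks only within a list. The knockdown peak had a score at or above 97.8% of its list. The wild-type peak had 1000, the highest value of its list, which 997 of the 32798 deposited WT peaks held.

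Another wild-type peak of 6.0 kb lay wholly inside YTHDF1 (63200401 to 63206400) and met no knockdown peak. Its score of 7.34 was low, with 19.5% of WT peaks at or below it. Beyond the 3′ end, a peak of 5.4 kb in KD cells faced one of 4.0 kb in WT cells. Farther out, peaks of 24 kb in KD cells and 26.4 kb in WT cells spanned MIR124-3, a gene of the neuronal microRNA miR-124. Each had the highest score of its list, 1000, a value held by 643 KD peaks and 997 WT peaks. The map of the locus shows that the mark flanked YTHDF1 on both sides in both libraries. The inner edge of the start domain and the peak within the gene differed between the lists. On the outer side the knockdown domain was broken by a gap, and the next knockdown peak ended at 63251000, near the wild-type edge at 63250800.

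**Figure D1:**
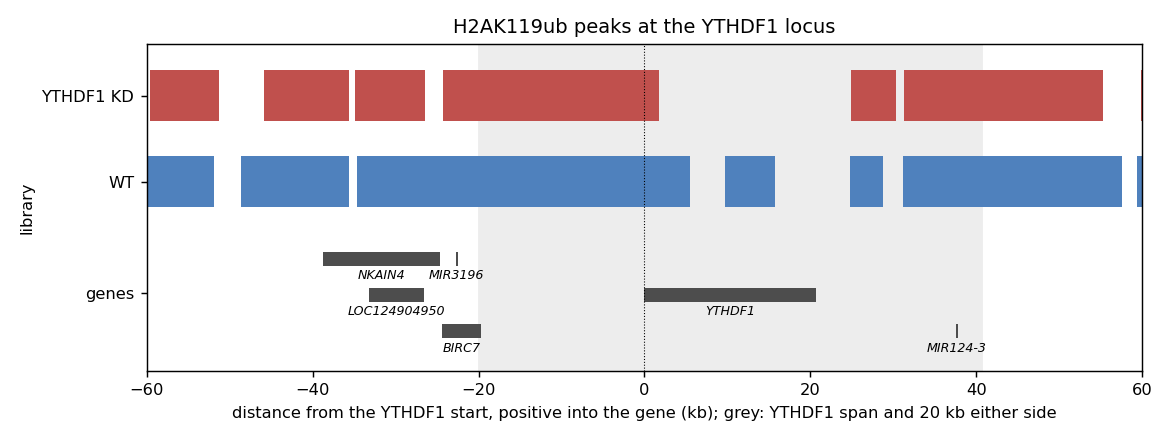
H2AK119ub peaks (bars) of the YTHDF1 knockdown library (upper row) and the wild-type library (lower row) by distance in kb from the YTHDF1 start, with the protein-coding and microRNA genes lying wholly in the stretch drawn below. The start domain measured 26.0 kb in KD cells and 40.2 kb in WT cells, and the 6.0 kb wild-type peak within the gene has no knockdown counterpart. The 40.2 kb wild-type peak also meets a separate knockdown peak of 8.4 kb.

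The other YTHDF readers, YTHDF2 and YTHDF3, carried narrow peaks at 1 end. YTHDF2, which recruits deadenylases to m6A-bearing transcripts and so speeds their decay, lies on chromosome 1 (28736624 to 28769775). Its start lay in a peak of 2.8 kb in KD cells (28735801 to 28738600) and of 5.4 kb in WT cells (28734801 to 28740200). The knockdown peak lay wholly inside the wild-type peak. A further knockdown peak of 2.6 kb (28784601 to 28787200), beyond the 3′ end, met no wild-type peak. The covered length of the window was therefore 5.4 kb in both lists, an equality made of different peaks.

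YTHDF3, a reader known to act together with the other YTHDF proteins, lies on chromosome 8 (63168553 to 63212788). A peak at its end of lower coordinate measured 1.8 kb in KD cells and 5.0 kb in WT cells, a ratio of 0.360. Both peaks were near the bottom of their lists, with scores of 3.51 and 5.21 and 4.13% and 10.5% of peaks at or below them. The knockdown peak reached 1.05 kb into the gene and the wild-type peak 0.648 kb, so the wider wild-type peak extended away from the gene.

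The nuclear reader YTHDC1 and the helicase reader YTHDC2 had a start peak in WT cells alone. YTHDC1, which acts in splicing and export of methylated RNA, lies on the minus strand of chromosome 4 (68310387 to 68350090). Its wild-type start peak measured 4.4 kb (68347201 to 68351600) with a score of 4.38, at or above 7.14% of its list. The knockdown peak nearest the start lay 14.9 kb away. The window still held 7.69 kb in peaks in KD cells and 10.5 kb in WT cells, with shared peaks on both flanks, while the gene span held 0 and 2.89 kb.

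YTHDC2, known for its need in meiosis in mouse germ cells, lies on chromosome 5 (113513694 to 113595284). It had no peak in its window in KD cells and a single peak of 3.6 kb at the start in WT cells (113513201 to 113516800). The score of this peak was 9.7, at or above 29.4% of its list, and the nearest knockdown peak lay 23.7 kb from the start. Of the 10757 protein-coding genes with a wild-type start peak, 755 had none in KD cells, which is 7.02%, and conversely 883 of 10885 knockdown start peaks (8.11%) had none in WT cells. Among wild-type start peaks under 5 kb wide, as those of YTHDC1 and YTHDC2 were, 13.7% had none in KD cells.

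**Figure D2:**
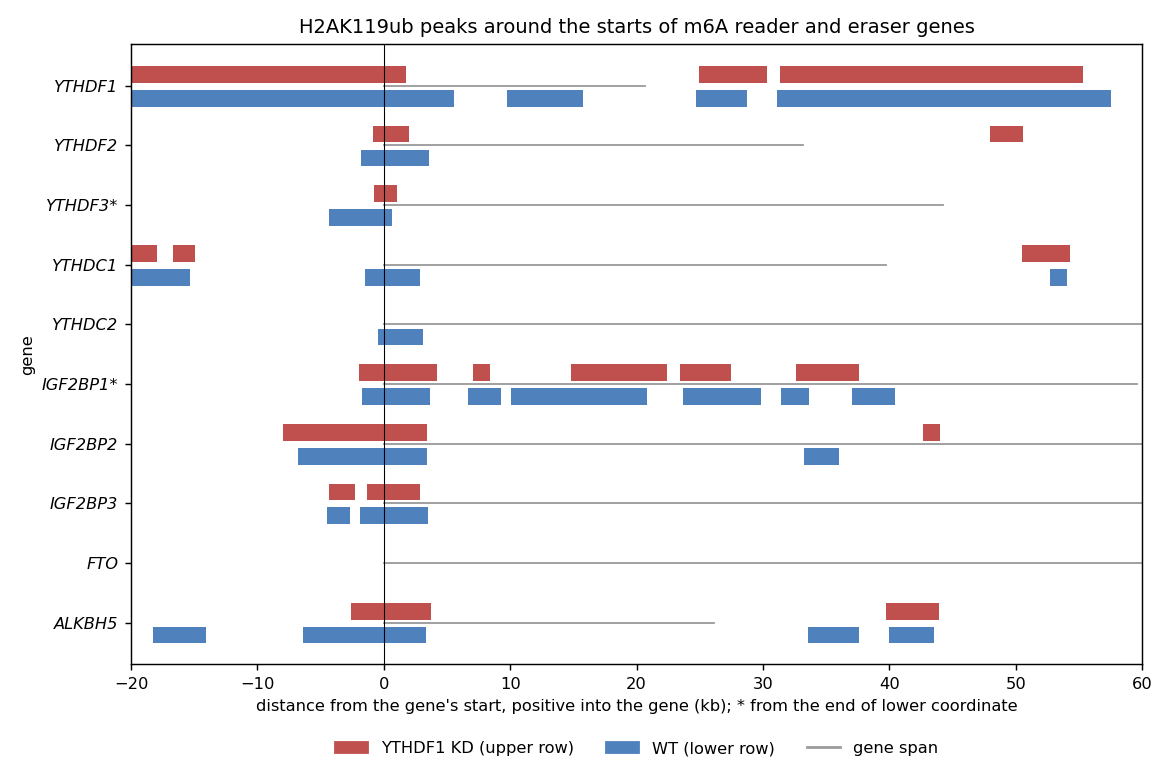
Peaks of the YTHDF1 knockdown (upper bars) and wild-type library (lower bars) for each member by distance in kb from its start, positive into the gene. For YTHDF3 and IGF2BP1 distances run from the end of lower coordinate. Starts without a knockdown bar but with a wild-type bar are those of YTHDC1 and YTHDC2, and FTO has neither. Peaks beyond the axis, such as those deep inside IGF2BP2 and FTO, are not drawn.

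The IGF2BP readers, RNA-binding proteins that stabilise their target transcripts, differed little in sum. Covered length was shorter in KD cells at IGF2BP1 and IGF2BP3 and longer at IGF2BP2. None of these differences reached 1.5-fold in this window. Their windows held 57.0 kb in peaks in KD cells and 56.2 kb in WT cells, against 51.4 and 69.6 kb for the 5 YTH readers. IGF2BP1 on chromosome 17 (48996558 to 49056145) carried a chain of peaks along its gene body. There were 5 knockdown peaks and 6 wild-type peaks, each of which met a peak of the other list. They covered 24.2 kb in KD cells and 30.6 kb in WT cells, or 24.3% and 30.7% of the window. The peak at the end of lower coordinate measured 6.2 kb in KD cells and 5.4 kb in WT cells, and the widest peak of the body 7.6 and 10.8 kb.

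IGF2BP2 on the minus strand of chromosome 3 (185643130 to 185825042) was the only member with more covered length in KD cells than in WT cells, 26.6 against 18.4 kb, a ratio of 1.45. Its start domain measured 11.4 kb in KD cells (185821601 to 185833000) and 10.2 kb in WT cells (185821601 to 185831800), with the same inner edge. The rest of the difference came from 7 knockdown peaks against 3 wild-type peaks, of which 5 knockdown peaks inside the gene, 1.4 to 3.4 kb wide with scores of 2.26 to 10.4, met no wild-type peak. In the wild type 1 peak of 2.8 kb met no knockdown peak. Among protein-coding genes with at least 1 kb in peaks, 98.3% had a difference at or below the 8.2 kb of IGF2BP2, and 85.7% a ratio at or below its own.

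IGF2BP3 on the minus strand of chromosome 7 (23310209 to 23470491) had 2 peaks at matching places in each list. Its start peak measured 4.2 kb in KD cells and 5.4 kb in WT cells, and a smaller peak just before it 2.0 and 1.8 kb. No peak lay elsewhere in its span of 160 kb. The covered lengths were 6.2 and 7.2 kb, a ratio of 0.861.

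The windows of the erasers held 10.6 kb in peaks in KD cells and 25.6 kb in WT cells, a ratio of 0.414 against 0.739 for the YTH readers. That order depended on the flanks, since in the gene spans alone the erasers had 3.77 and 7.37 kb (0.512) and the YTH readers 4.76 and 21.8 kb (0.219). FTO, a demethylase of m6A and of the related cap-adjacent mark, spans 418 kb of chromosome 16 (53703963 to 54121941) and was almost bare of the mark. It had no peak in KD cells and a single wild-type peak of 4.0 kb (54051801 to 54055800), 348 kb into the gene, with a score of 5.6 at or above 12.1% of its list. The peak nearest to its start lay 139 kb away in KD cells and 151 kb away in WT cells.

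ALKBH5, the other known m6A demethylase, lies on the plus strand of chromosome 17 (18183828 to 18209954). It had 10.6 kb in peaks in KD cells and 21.6 kb in WT cells, a ratio of 0.491 and, at -11.0 kb, the largest difference of the 10 members in this window. The start peak measured 6.4 kb in KD cells (18181201 to 18187600) and 9.8 kb in WT cells (18177401 to 18187200). Inside the gene the covered length was 3.77 kb in KD cells and 3.37 kb in WT cells, so the difference lay outside it, with 2.63 against 10.6 kb in the 20 kb before the start. Most of that flank belongs to the neighbouring MYO15A, which ends at 18179800. With bases inside other protein-coding genes left out, which was decided with the data in view, the difference was -4.8 kb. YTHDF1 (a ratio of 0.808), IGF2BP1 (-6.4 kb) and IGF2BP2 (8.2 kb) then differed more. With 10 kb or less either side of the gene, YTHDF1, IGF2BP1 and IGF2BP2 differed more than ALKBH5.

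**Figure D3:**
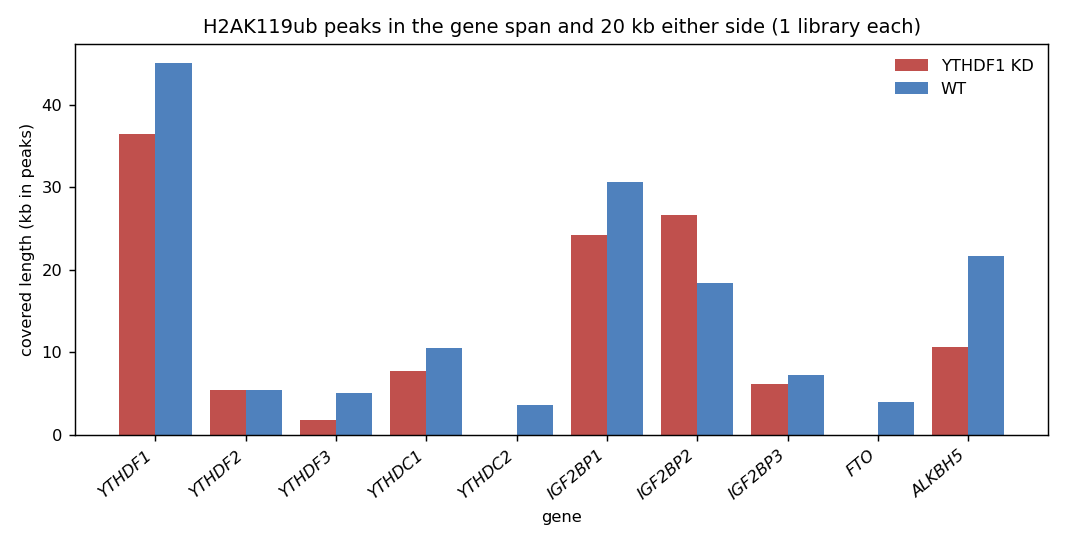
Covered length in kb of H2AK119ub peaks in the gene span and 20 kb either side, for the YTHDF1 knockdown library (left bar) and the wild-type library (right bar) of each member. Bars are single libraries without error. IGF2BP2 has more in KD cells (26.6 against 18.4 kb), YTHDF2 is equal, and the other members have less, with YTHDC2 and FTO at 0 in KD cells.

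Taking the members at their starts, a peak within 2 kb was found for 5 of the 8 members with an annotated start in KD cells and 7 of 8 in WT cells. Over protein-coding genes the shares were 68.8% and 68.0%. YTHDF3 and IGF2BP1, taken at either annotated end, had a peak in both lists. Where both lists had a start peak, it was narrower in KD cells at YTHDF1, YTHDF2, IGF2BP3 and ALKBH5 and wider at IGF2BP2. At YTHDF1 the wild-type peak met 2 knockdown peaks split by a gap, and only the one over the start was measured. Over protein-coding genes, 62.2% of such peaks were narrower, 34.2% wider and 3.54% equal, with a median width ratio of 0.867. The median ratio of those 5 members was 0.653.

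**Figure D4:**
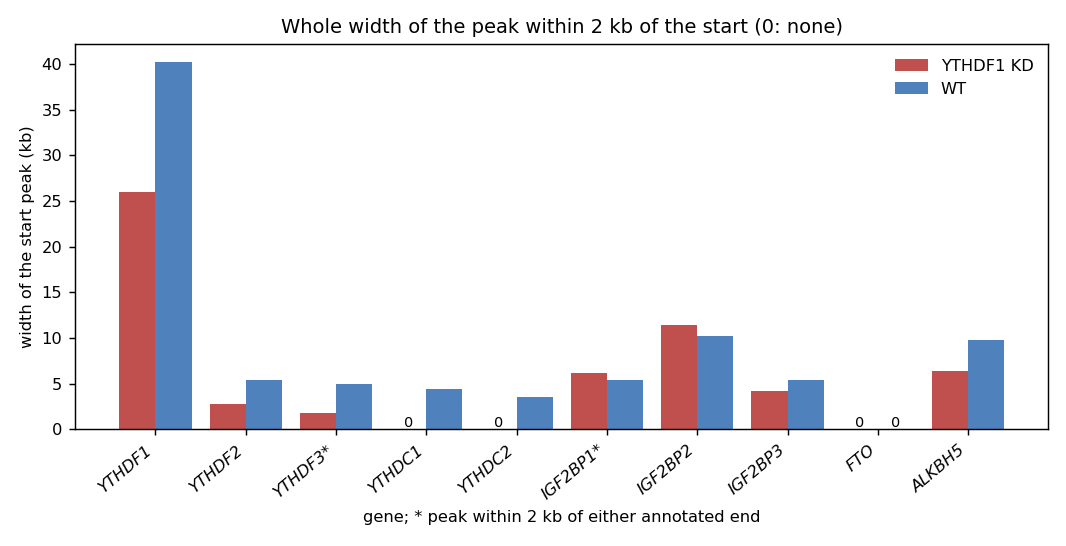
Whole width in kb of the peak within 2 kb of the start of each member in the YTHDF1 knockdown (left bar) and the wild type (right bar), with 0 where there was none. YTHDF1 stands out at 26.0 and 40.2 kb, and the other start peaks lie between 1.8 and 11.4 kb.

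The members' calls were read beside those of all protein-coding genes. A gene was called lower or higher when its covered length differed by at least 1.5-fold, with at least 1 kb in peaks in 1 of the lists. Of the 10 members 4 were called lower (YTHDF3, YTHDC2, FTO and ALKBH5), against a background of 24.7% of 16436 protein-coding genes. No member was called higher, against 13.5%. When KD lengths were divided by the ratio of the whole lists, 0.862, the same 4 were called lower and IGF2BP2 higher, against 16.8% and 18.1%. The median ratio of protein-coding genes was then 1.03, YTHDF1 stood at 0.938 and IGF2BP3 at 0.998, and YTHDF2 moved to 1.16. Of the 5 members with 1 to 10 kb in the longer list, YTHDF3, YTHDC2 and FTO were called lower, and YTHDF2 and IGF2BP3 were not called. Among all genes of that class 28.5% were called lower and 24.8% higher, a background added with the data in view. The covered length was shorter in KD cells for 8 members, longer for 1 and equal for 1. Over all 19839 protein-coding genes it was shorter for 10563, longer for 5625 and equal for 3651, genes without any peak counting as equal. The members' median difference was -3.4 kb against -1.6 kb over protein-coding genes, and their median ratio 0.762 against 0.886. Per member the mean was 11.9 kb in KD cells and 15.1 kb in WT cells, a ratio of 0.786, against 0.860 over all protein-coding genes. Every member had at least 1 peak in its window in WT cells and 8 did in KD cells, against 79.3% and 79.8% of protein-coding genes. Peaks in WT cells alone were found in the windows of YTHDC2 and FTO, against 3.35% of genes, and peaks in KD cells alone at no member, against 3.81%.

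The count of lower members moved with the window. In the gene span alone 5 members were lower (YTHDF1, YTHDF2, YTHDC1, YTHDC2 and FTO; background 29.7%) and 2 higher (YTHDF3 and IGF2BP2; background 17.1%). With 5 kb either side 6 were lower, against 26.2%, and none higher, against 14.6%. These were the 5 YTH readers and FTO. With 10 kb either side 6 were lower, against 25.8%, and none higher, against 14.0%, with ALKBH5 in place of YTHDF1. At a 2-fold difference in the full window 4 were lower, against 12.5%, and none higher, against 8.43%. With a threshold of 25% more in the longer list 6 were lower, against 38.9%, and IGF2BP2 was higher, against 19.5%.

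None of the 4 calls in the full window was made among the higher-scoring peaks. In the upper 50% of each list by score YTHDF2 and IGF2BP3 were lower, against 27.5% of protein-coding genes, and none was higher, against 15.2%. None of YTHDF3, YTHDC2, YTHDC1 and FTO had a peak left in either list, and ALKBH5 had 10.6 kb in KD cells and 13.4 kb in WT cells. The same 6 members then had a peak in the window in KD cells and in WT cells, against 65.4% and 65.3% of genes. A start peak was left at 5 of the 8 annotated starts in KD cells and 5 in WT cells, against 51.7% and 51.2%. Of the members' peaks 11 of 12 in each list were shared, against 78.1% of peaks in the KD list and 75.7% in the WT list.

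Of the members' peaks, 19 of 25 in KD cells (76.0%) and 19 of 26 in WT cells (73.1%) shared at least 1 bp with a peak of the other list, near the 74.1% and 71.4% of the whole lists. The unshared ones had low scores, and median widths of 2.7 kb in KD cells and 4.0 kb in WT cells, against 4.2 and 5.4 kb for the shared ones. Their highest scores were 10.4 in KD cells and 9.7 in WT cells, and their median scores 6.1 and 5.6, against 19.8 and 23.7 for the shared ones. The 7 unshared wild-type peaks were the start peaks of YTHDC1 and YTHDC2, the peaks described inside YTHDF1 and FTO, and others at ALKBH5 and IGF2BP2. The 6 unshared knockdown peaks lay at IGF2BP2 and YTHDF2.

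**Figure D5:**
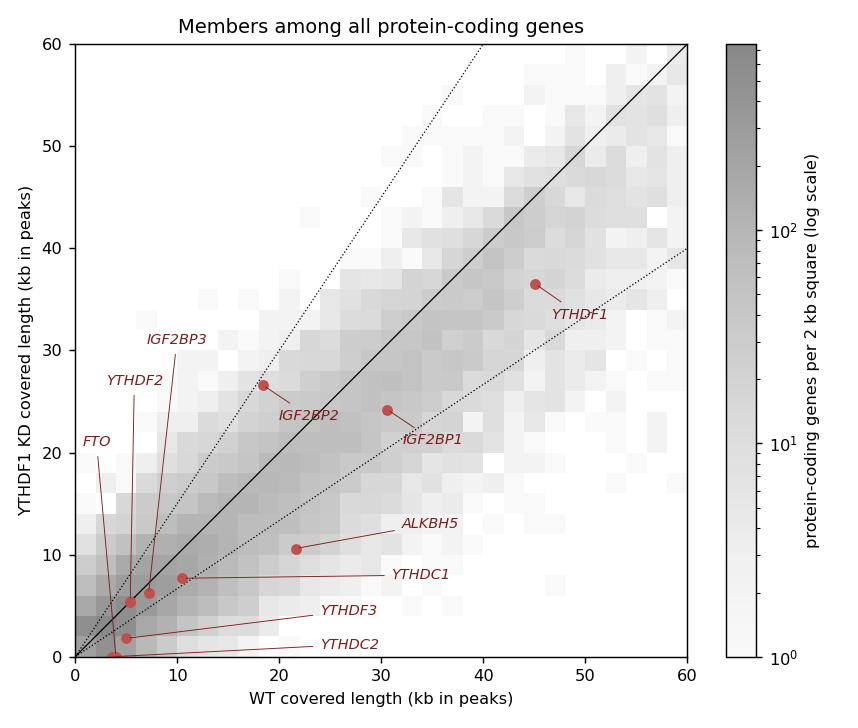
Covered length of each member (red points) in the YTHDF1 knockdown (vertical axis, kb) and the wild type (horizontal axis, kb) over the density of 16022 protein-coding genes in grey. The solid line marks equal lengths and the dotted lines a 1.5-fold difference. YTHDF3, YTHDC2, FTO and ALKBH5 lie under the lower dotted line, and IGF2BP2 lies just inside the upper one.

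The other genes of the pathway were taken as a list of 18. Among the 9 writers, METTL3, the catalytic subunit, had 4.8 kb in KD cells and 13.4 kb in WT cells. WTAP, the regulatory subunit that places the complex in nuclear speckles, had 5.4 and 11.4 kb. VIRMA and CBLL1, further subunits, had no peak in KD cells and 5.0 and 2.8 kb in WT cells. These 4 writers were called lower and none higher, while METTL14 and ZC3H13 had no peak in either list. The 3 enzymes that methylate other RNA sites were all called lower, with 5.6 against 10 kb for METTL5, 6.0 against 10.2 kb for ZCCHC4 and 5.12 against 8.8 kb for PCIF1. Of 6 further proposed readers HNRNPC was called lower (2.6 against 4.6 kb), and RBMX and FMR1 had no peak in either list. In all, 8 of the 14 with at least 1 kb in peaks were called lower and none higher, with the same backgrounds of 24.7% and 13.5%. These calls are not scaled by the whole lists. With KD lengths divided by 0.862, ZCCHC4 (0.588 unscaled) and PCIF1 (0.582) would fall short of the 1.5-fold threshold. The other calls would stay, against a background of 16.8% lower. The other 4 of the 18 had no peak and could not be called.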

How the data were processed

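H2AK119ub was mapped in 1 YTHDF1 knockdown and 1 wild-type library of H1 cells, grouped by sample title. Per the submitters' processing notes, the tools were Bowtie2 2.2.5, Trimmomatic 0.35, SICER 1.1, MACS2 2.1.0, Picard and SAMtools 1.3.1, with hg38 and no stated role. The peak caller and any use of the inputs are not given in the sources available. The deposited score per peak is the authors' own and was used only to describe, rank or filter peaks within its list. Peak edges lay on a 200 bp grid in both lists, and ends were read as inclusive. Covered length, the number of bases inside peaks, was computed with Python 3.11.15, numpy 2.4.6 and pandas 2.3.3, with functions checked on simulated data. Starts and promoters came from the RefSeq promoter table, and 135 genes placed on scaffolds were not counted. No test was possible. All members are named, with genes under their peaks and pathway genes that were called or had no peak. Members and lists were chosen with earlier results of these data known. Other windows, thresholds, scalings and overlap rules were tried.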

Additional observations from a re-analysis of the deposited data

How the results depend on the processing

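The lower ratio at YTHDF1 depended on the score filter and on the window. In the upper 50% of each list by score it was 1.04. The wild-type peaks within and behind the gene fell away there, while the knockdown peak behind it stayed. Behind the gene the wild-type peak scored 16.25, just under its list median of 16.51, and the knockdown peak 19.75, above its median of 14.85. The ratio was 0.429 with 5 kb either side and 0.150 in the gene span alone, where the filled flank no longer counts. The number of members called lower was 2 in the upper 50% by score, against 27.5% of protein-coding genes there. Members called higher numbered 2 in the gene span alone, 1 when scaled by the whole lists and 1 with a threshold of 25%. The shares over protein-coding genes were 17.1%, 18.1% and 19.5%. In the upper 50% by score 6 members had a peak in the window in KD cells and 6 in WT cells, against 65.4% and 65.3% of genes. A start peak was left at 5 of the 8 annotated starts in each, against 51.7% and 51.2%. The members' shared peaks numbered 11 in each list, of 12 peaks in KD cells and 12 in WT cells, against 78.1% and 75.7%. In the gene span alone, YTHDF3 and ALKBH5 had 0.4 kb more in KD cells. No paired analysis was possible because each group had 1 library. Depth is unknown, so depth and group cannot be told apart.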

Other observations

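Some genes beside YTHDF1 and ALKBH5 also carried the mark over their spans. MYO15A, an unconventional myosin gene of inner ear hair cells that lies before ALKBH5, had 21.6 kb in peaks over its span in KD cells and 49.6 kb in WT cells. LLGL1, a cell polarity gene on the other side of ALKBH5, had 7.57 and 8.17 kb. At the YTHDF1 locus, BIRC7, an inhibitor of apoptosis gene, had 4.5 of its 4.59 kb in peaks in KD cells and all of it in WT cells, and NKAIN4 had 11.5 kb in KD cells and 13.1 kb in WT cells. These values are descriptions of 2 libraries, and no test was run.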
